A study of Danio rerio with 6 samples.

Results

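Toll-like receptors (TLRs) and RIG-I-like receptors sense microbial molecules, and their genes were read here as 36 of the 326 gene assays of a real-time PCR plate. The plate was run on zebrafish (Danio rerio) embryos that carried extra NOD1. Members were taken by symbol: every assay beginning with TLR except the 3 TLR4 paralogs, the IRAK, TICAM, TIRAP, TRAF, TOLLIP, SARM and MAVS assays, and MYD88, TRIF, RIG-I, LGP2, IFIH1, TBK1 and IKBKE. MDA5 is the older name of IFIH1 and LGP2 that of DHX58, and no assay bore the symbols MDA5, DHX58 or TMEM173. The NOD1 group was microinjected with ptGFP1-NOD1 and the control group with the empty plasmid ptGFP1, so the embryos of both groups had received a plasmid. Each group had 3 biological replicates, collected whole at 24 hours post fertilization, and 1 plate per replicate, with RNA from 150 to 200 embryos per group on average. Strain, promoter and the share of cells that took up the plasmid are not given in the sources used here, nor is it stated whether replicates came from separate spawnings, so the p-values measure the spread between these RNA samples.

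TLRs are membrane receptors that bind microbial lipids, proteins or nucleic acids and signal through a cytoplasmic TIR domain. Of the TIR adaptors, MYD88 passes the signal to IRAK kinases, and both MYD88 and TRIF act through TRAF ubiquitin ligases. These routes lead to NF-kB, MAP kinases and interferon regulatory factors. RIG-I-like receptors are helicases that sense viral RNA in the cytoplasm and signal through MAVS on mitochondria to the kinases TBK1 and IKK epsilon (IKBKE), which switch on type I interferon genes. NOD1 belongs to another receptor family, the NLRs, and senses bacterial peptidoglycan in the cytoplasm.

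The measure was the threshold cycle (Ct), the PCR cycle at which fluorescence crosses a set level, where a later Ct means less template. The relative level used below sets each gene's Ct against the average of the reference genes ACTB, GAPDH and Tuba1 measured on its plate (references minus gene). Its scale is log2-like, 1 unit being 2-fold at perfect amplification, and higher means more transcript. Levels of different assays are not compared because their efficiencies are unknown. The NOD1 assay itself read -3.20, -1.49 and -2.26 in NOD1 plates, against -10.81, -10.94 and -10.97 in control plates, a 386-fold difference (limma adjusted p = 2.25e-04). That assay does not separate plasmid from embryo transcript. The mean Ct of the 3 reference genes was 18.22, 18.39 and 18.20 in NOD1 plates and 17.61, 17.75 and 17.48 in control plates, so the references came up 0.655 cycles later in NOD1 (two-sided exact permutation test, p = 0.1, which is the lowest value 3 plates against 3 can reach). The NOD1 plates were run on 1 day and the control plates on 2 earlier days, and the effect of the run cannot be told apart from that of the group.

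All 36 members had a Ct under 35 on every plate, the latest being 34.97, and none was lost to the filter on late wells. Of the 36, 12 were higher in NOD1 (33.3%, against 37% of the 319 genes tested), 6 were lower (16.7%, against 15.4%) and 18 did not pass an adjusted p of 0.05, so 18 of 36 were called in either direction, against 52.4% of all genes. The plates of the groups did not overlap for 22 members, 61.1%, against 63.9% of all genes tested. These shares are near those of the whole plate. The balance depended on the scaling: 7 members were higher and 18 lower with the global mean, 8 and 13 with the global median, and 24 and 1 with 18S rRNA added as a further reference. The whole plate moved too. Of the 319 genes, 76 were higher and 140 lower with the global mean, 81 and 113 with the global median, and 195 and 18 with 18S rRNA added. The median difference, NOD1 minus control, was 0.26 on the log2 scale over the members and 0.32 over all genes. The number of lower members fell to 3 in each fit without control replicate 1, 2 or 3 or NOD1 replicate 1 or 2, and to 5 without NOD1 replicate 3. Over all genes the number of lower ones fell from 49 to between 31 and 45 in these fits. In RNA from whole embryos, fewer cells of a type and less RNA per cell cannot be told apart.

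**Figure D1:**
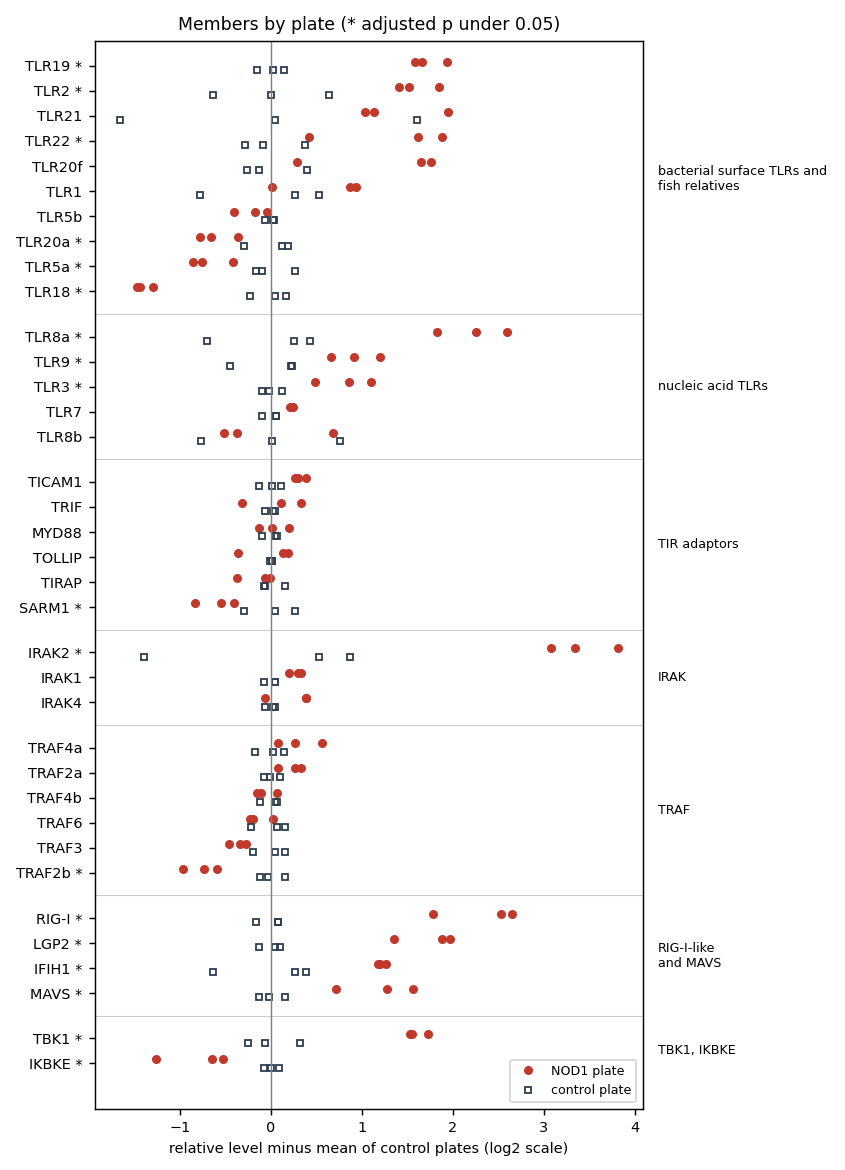
Relative level of each of the 36 members on each plate, as the distance from the mean of its 3 control plates on the log2 scale, with NOD1 plates as filled circles above and control plates as open squares below in each row. Starred members passed an adjusted p of 0.05. All 4 genes of the RIG-I-like group lie to the right of their control plates, and the TIR adaptors and TRAF genes have mean differences of -0.77 to 0.32.

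The RIG-I-like receptor branch was higher in NOD1 with the 3 reference genes. All 4 of its assays, the 3 receptors and their adaptor MAVS, passed in the upward direction (100%, against 37% of all genes). Their differences were 1.18 to 2.32, with a median of 1.47 on the log2 scale. LGP2 and IFIH1 were among the 106 genes with a mean Ct of 27.98 or later, of which 61.3% were higher. RIG-I and MAVS were among the 106 genes from 25.16 to 27.96 cycles, of which 36.8% were higher. Of the 4, only RIG-I kept its call under all 10 other scalings of the Ct tried. RIG-I, which senses short RNA with a 5′ triphosphate, had Ct values of 25.56, 24.86 and 24.79 in NOD1 plates, against 26.89, 26.79 and 26.52 in control plates. Its relative level was -7.34, -6.47 and -6.59 in NOD1 and -9.28, -9.04 and -9.04 in control. Every NOD1 plate was well above every control plate, and the rise was 2.32 ± 0.26 (SE, n = 3 per group), or 4.996-fold (limma adjusted p = 0.00151).

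LGP2, a relative of RIG-I that lacks the signalling domain and tunes the other sensors, had relative levels of -10.89, -10.27 and -10.36 in NOD1 and -12.20, -12.14 and -12.37 in control. The groups were well apart and each was narrow, and the rise was 1.73 ± 0.20 (3.32-fold, limma adjusted p = 0.00154). With quantile scaling it was 0.47 (adjusted p = 0.0834). The LGP2 assay matched no zebrafish gene in RefSeq, and which transcript it reads was not tested. IFIH1 encodes MDA5, the sensor of long double-stranded RNA. It had relative levels of -12.45, -12.36 and -12.43 in NOD1, against -13.24, -14.27 and -13.36 in control. Its NOD1 plates lay within 0.1 of each other, while control replicate 2 stood below the other control plates. IFIH1 rose by 1.21 ± 0.29 (2.32-fold, limma adjusted p = 0.0161), a call lost without NOD1 replicate 2 (adjusted p = 0.0527), with the global mean, the global median and raw Ct, and turned to -0.043 with quantile and -0.30 with cyclic loess scaling, which did not pass.

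MAVS, the adaptor of these receptors, had relative levels of -6.78, -7.06 and -7.63 in NOD1 and -8.36, -8.18 and -8.47 in control. The groups did not overlap, and the 3 control plates had nearly the same Ct. The Ct was 25.001, 25.449 and 25.834 in NOD1, against 25.968, 25.934 and 25.952 in control. In Ct, NOD1 replicate 3 was thus close to the control plates, while its reference genes were later (18.20, against 17.48 to 17.75). MAVS rose by 1.18 ± 0.24 (2.26-fold, limma adjusted p = 0.00953), and did not pass with the global mean (0.57, adjusted p = 0.0931) or on raw Ct (0.52, adjusted p = 0.0860).

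The related kinases TBK1 and IKBKE, both of which phosphorylate IRF3, went opposite ways. TBK1 had relative levels of -8.28, -8.10 and -8.30 in NOD1, against -9.90, -10.08 and -9.51 in control, and rose by 1.61 ± 0.18 (3.04-fold, limma adjusted p = 0.00154). IKBKE had relative levels of -10.11, -9.50 and -9.38 in NOD1, against -8.93, -8.85 and -8.76 in control. It fell by 0.82 ± 0.22 (limma adjusted p = 0.0226), although the call was lost without control replicate 1, 2 or 3 (adjusted p = 0.0534, 0.0586 and 0.0721). The Ct of IKBKE minus that of TBK1 on 1 plate gives their log2 ratio without any reference gene, up to a constant set by the efficiencies of the assays, so that only its shift between groups is read. This difference in Ct was 1.84, 1.40 and 1.08 in NOD1 plates and -0.97, -1.23 and -0.75 in control plates. Every NOD1 plate was above every control plate, with a shift of 2.42 toward TBK1 (exact permutation p = 0.1, two-sided; 0.117 adjusted over 7 pairs of assays, and no lower p was possible).

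**Figure D2:**
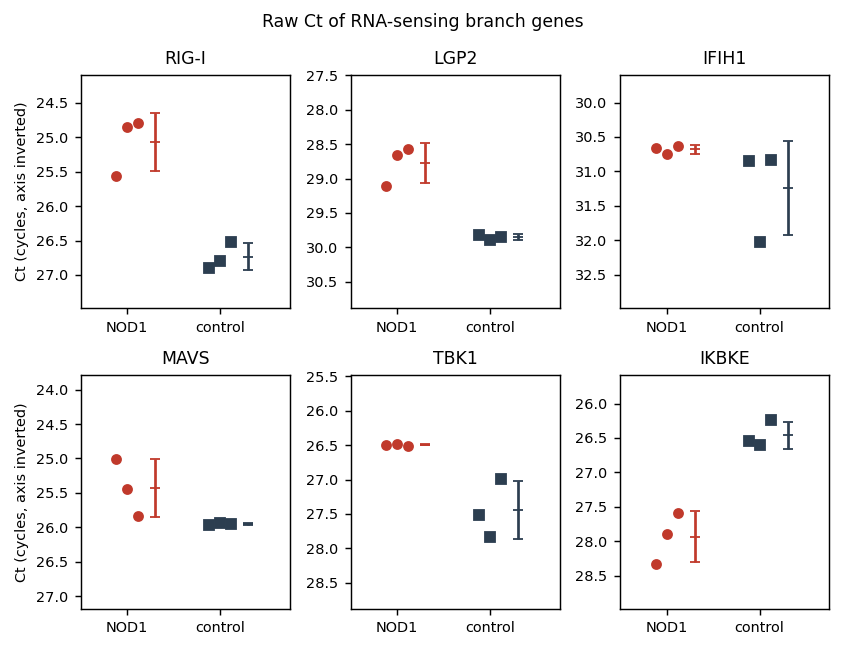
Raw Ct of RIG-I, LGP2, IFIH1, MAVS, TBK1 and IKBKE, with the 3 NOD1 plates at the left and the 3 control plates at the right of each panel and the mean and SD beside them; the axis is inverted, so higher means more template, and each panel spans the same number of cycles. TBK1 read 26.49, 26.49 and 26.51 in NOD1 and 27.51, 27.83 and 26.99 in control, while IKBKE came up later in NOD1.

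Among the 15 TLR assays, 6 were higher (40%, against 37% of all genes) and 3 were lower (20%, against 15.4%). Another 6 did not pass. The shares called are near those of the whole plate, but most TLR assays came up late. Of the 106 genes with a mean Ct of 27.98 or later, 61.3% were higher and 4.72% lower. Of the 5 receptors known from mammals as sensors of nucleic acids, TLR3, TLR8a and TLR9 rose (60.0%, against 37%), and TLR7 and TLR8b did not pass. That share rests on 5 assays. TLR3, TLR9 and TLR8b were among the 106 genes with a mean Ct of 27.98 or later, of which 61.3% were higher. TLR7 and TLR8a were among the 106 genes from 25.16 to 27.96 cycles, of which 36.8% were higher. TLR8a, a relative of the single-stranded RNA sensor TLR8, had relative levels of -9.31, -8.54 and -8.88 in NOD1 and -11.83, -10.70 and -10.88 in control. The lowest NOD1 plate was above the highest control plate, and the rise was 2.22 ± 0.36 (4.67-fold, limma adjusted p = 0.00451). Its paralog TLR8b was late, with Ct values from 30.49 to 32.54, and the groups overlapped (difference -0.071, 95% interval -1.29 to 1.15). The log2 ratio of TLR8a to TLR8b was 3.65, 5.62 and 5.13 in NOD1 and 1.05, 2.93 and 3.53 in control, so that NOD1 replicate 1 and control replicate 3 nearly met (shift 2.30, exact permutation p = 0.1).

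TLR3, the sensor of double-stranded RNA, had relative levels of -9.96, -9.35 and -9.59 in NOD1, against -10.33, -10.55 and -10.47 in control. TLR9, which binds unmethylated CpG DNA, had -11.37, -11.08 and -11.62 in NOD1 and -12.05, -12.06 and -12.73 in control. In both genes all NOD1 plates lay above all control plates, by smaller margins than TLR8a. TLR3 rose by 0.82 ± 0.18 and TLR9 by 0.92 ± 0.25 (limma adjusted p = 0.0137 and 0.0243). The TLR9 call was lost without control replicate 3, NOD1 replicate 1 or NOD1 replicate 2 (adjusted p = 0.0507, 0.0653 and 0.0753). Both calls depended on the scaling. Neither passed with the global mean (TLR3 0.21, TLR9 0.31), the global median (0.34 and 0.45) or raw Ct (0.16 and 0.26), nor with quantile scaling (-0.057 and -0.19) or cyclic loess (-0.11 and -0.33), where the sign turned. TLR9 was also lost with ACTB alone (0.74, adjusted p = 0.0621). TLR7 differed by 0.22 ± 0.11 (limma adjusted p = 0.141), with NOD1 plates at -7.76, -7.77 and -7.79 and control plates at -7.94, -7.94 and -8.10. The TLR7 assay matched no zebrafish gene in RefSeq, and which transcript it reads was not tested.

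The other 10 TLR assays covered relatives of the receptors for bacterial lipopeptides (TLR1, TLR2) and flagellin (TLR5a, TLR5b) and the receptors TLR18 to TLR22, several of which occur in fish and not in mammals. Of these, 3 were higher (30.0%, against 37% of all genes) and 3 were lower (30.0%, against 15.4%), and the remaining 4 did not pass. TLR5a and TLR5b were among the 106 genes from 25.16 to 27.96 cycles, of which 36.8% were higher and 17.9% lower. The others were among the 106 genes with a mean Ct of 27.98 or later, of which 61.3% were higher and 4.72% lower. TLR19 had relative levels of -9.99, -10.07 and -9.71 in NOD1, against -11.63, -11.51 and -11.80 in control, and rose by 1.72 ± 0.15 (3.31-fold, limma adjusted p = 9.10e-04). TLR2 had -10.51, -10.40 and -10.07 in NOD1 and -12.56, -11.28 and -11.92 in control, and rose by 1.59 ± 0.34 (3.02-fold, limma adjusted p = 0.0112). The NOD1 plates of both genes were above all their control plates. TLR2 did not pass with quantile (0.19, adjusted p = 0.658) or cyclic loess scaling (0.46, adjusted p = 0.259).

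TLR18, a fish receptor of the TLR1 family, went the other way. Its relative levels were -11.39, -11.36 and -11.21 in NOD1, against -10.15, -9.75 and -9.87 in control, so that every NOD1 plate was more than 1 unit below every control plate. It fell by 1.40 ± 0.15 (limma adjusted p = 0.00135). TLR5a had -10.37, -10.27 and -9.93 in NOD1 and -9.25, -9.61 and -9.67 in control, and TLR20a had -12.04, -12.16 and -11.74 in NOD1 and -11.26, -11.68 and -11.19 in control. The groups did not overlap in either gene, the nearest plates being 0.26 apart for TLR5a and 0.06 apart for TLR20a. TLR5a fell by 0.68 ± 0.19 and TLR20a by 0.60 ± 0.19 (limma adjusted p = 0.0247 and 0.0439). Both calls were lost in 4 of the 6 fits that left out a plate: TLR5a without control replicate 1 or 2 or NOD1 replicate 1 or 2 (adjusted p = 0.0512 to 0.0758), and TLR20a without control replicate 1 or 3 or NOD1 replicate 1 or 2 (adjusted p = 0.0991 to 0.126).

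TLR20f and TLR22, which detects double-stranded RNA in pufferfish, had a similar spread over the plates. TLR22 had relative levels of -11.38, -10.18 and -9.92 in NOD1, against -11.89, -11.42 and -12.08 in control, and TLR20f had -11.10, -9.74 and -9.63 in NOD1, against -11.52, -10.99 and -11.65 in control. In both, NOD1 replicate 1 lay near the control plates and the other NOD1 plates well above them. TLR22 passed, with a rise of 1.31 ± 0.42 (limma adjusted p = 0.0447), and kept the call when NOD1 replicate 1 was left out but in no other fit without 1 plate (adjusted p = 0.0563 to 0.127). It was lost under 6 of 10 scalings: the global mean (0.70), the global median (0.83), raw Ct (0.65), ACTB alone (1.12), cyclic loess (0.17) and quantile scaling (-0.024). TLR20f differed by 1.23 ± 0.44 (limma adjusted p = 0.0608), and by 1.70 without NOD1 replicate 1 (adjusted p = 0.00723). TLR21, a CpG DNA receptor in chicken, differed by 1.37 ± 0.83 (limma adjusted p = 0.210), with control plates from -15.40 to -12.13, by 2.17 without control replicate 3 (adjusted p = 0.0399) and by 0.54 without control replicate 2 (adjusted p = 0.473). TLR1 and TLR5b differed by 0.60 ± 0.43 and -0.20 ± 0.13, and their groups overlapped. TLR5b was called lower with the global mean (-0.81), the global median (-0.67), raw Ct (-0.85), quantile (-0.60) and cyclic loess scaling (-0.35).

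The log2 ratio of TLR20a to TLR20f was -0.94, -2.42 and -2.11 in NOD1, against 0.27, -0.69 and 0.46 in control (shift -1.83, exact permutation p = 0.1). For the flagellin receptor paralogs, the ratio of TLR5a to TLR5b was -1.97, -2.22 and -1.75 in NOD1 and -1.26, -1.63 and -1.60 in control (shift -0.48, exact permutation p = 0.1). Neither ratio overlapped between the groups, and both shifted toward the paralog that did not pass on its own. Adjusted over the 7 pairs, p was 0.117 for each of the 6 pairs that did not overlap.

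**Figure D3:**
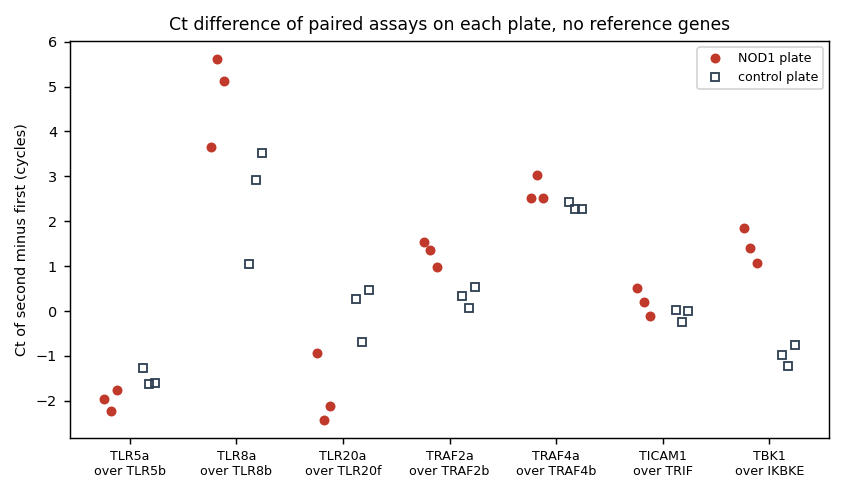
Ct of the second assay minus Ct of the first, in cycles, for 7 pairs of assays on each plate, with NOD1 plates (filled circles) left of control plates (open squares); no reference gene enters, and only the shift between groups within a pair can be read, not its distance from 0. The NOD1 plates of TBK1 over IKBKE (1.08 to 1.84) lie above its control plates (-1.23 to -0.75). For TICAM1 over TRIF, 2 assays matched to the same gene name, the groups overlap.

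With the 3 reference genes, limma called no transcript of the adaptors that carry the TLR signal (MYD88, TIRAP, TICAM1 and TRIF). The sign of their differences depended on the scaling. Of 6 TIR-domain adaptors and inhibitors, limma called 0 higher, against 37% of all genes, and 1 lower, against 15.4%, and 5 did not pass. TIRAP and TOLLIP were among the 107 genes with a mean Ct up to 25.07 cycles, of which 13.1% were higher and 23.4% lower. The others were among the 106 genes from 25.16 to 27.96 cycles, of which 36.8% were higher and 17.9% lower. By unadjusted p under 0.05, 1 was higher and 1 lower (33.3% in either direction, against 58.6% of all genes). With the global mean, MYD88 (-0.59), TIRAP (-0.75), TOLLIP (-0.62) and TRIF (-0.57) were called lower, and with 18S rRNA added all 4 were called higher (0.51, 0.34, 0.47 and 0.53). MYD88, the adaptor of most TLRs, had relative levels of -8.14, -8.00 and -7.81 in NOD1, against -7.94, -7.97 and -8.11 in control, and differed by 0.023 ± 0.13 (95% interval -0.31 to 0.36). TIRAP, which recruits MYD88 to the membrane, differed by -0.14 ± 0.15, and TOLLIP, an inhibitor of IRAK1, by -0.013 ± 0.18. SARM1, an inhibitor of TRIF signalling in mammals and an enzyme that degrades NAD, had -8.51, -8.79 and -8.36 in NOD1 and -8.26, -7.70 and -7.91 in control. It fell by 0.60 ± 0.20 (limma adjusted p = 0.0491), at the edge of the threshold, and passed in 1 of the 6 fits that left out a plate, that without control replicate 1 (adjusted p in the other 5, 0.0546 to 0.136).

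TICAM1 and TRIF are names of the same adaptor, and both assays matched the zebrafish gene ticam1, TRIF by synonym only. Whether the 2 assays read the same transcript was not tested. TICAM1 differed by 0.32 ± 0.12 (limma adjusted p = 0.0697), with NOD1 plates at -8.58, -8.45 and -8.54 and control plates at -8.73, -8.97 and -8.83. TRIF differed by 0.041 ± 0.19 (limma adjusted p = 0.870), with NOD1 plates at -9.09, -8.66 and -8.44 and control plates at -8.75, -8.73 and -8.83. The TICAM1 groups did not overlap and the TRIF groups did, and the ratio of the assays shifted by 0.27 (exact permutation p = 0.3).

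Among the IRAK kinases, IRAK2 passed and IRAK1 and IRAK4 did not. IRAK2 had Ct values of 31.23, 31.15 and 30.50 in NOD1, against 33.18, 32.98 and 34.97 in control, the last being the latest well of any member. Its rise was 3.41 ± 0.62 on the log2 scale, or 10.6-fold (limma adjusted p = 0.00710). IRAK2 was among the 106 genes with a mean Ct of 27.98 or later, of which 61.3% were higher, with a median difference of 1.32. Without control replicate 3, whose well was nearly 2 cycles later than the other control wells, the rise was 2.71 (adjusted p = 0.00501), and it was 1.67 with quantile and 1.66 with cyclic loess scaling (adjusted p = 0.0542 and 0.0905, neither past the threshold). The accession given for IRAK2 on the plate is known as that of a human IRAK2 transcript, and neither it nor the symbol matched in the zebrafish RefSeq table. Which zebrafish transcript the assay reads was not tested, so the rise is that of this assay. IRAK1 differed by 0.27 ± 0.11 (limma adjusted p = 0.0832), its groups not overlapping, and IRAK4 by 0.24 ± 0.16 (adjusted p = 0.263; 0.39 and 0.0307 without NOD1 replicate 1).

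Of the 6 TRAF assays, limma called 0 higher, against 37% of all genes, and 1 lower (16.7%, against 15.4%), and 5 did not pass. TRAF4a was among the 107 genes with a mean Ct up to 25.07 cycles, of which 13.1% were higher and 23.4% lower. The other TRAF assays were among the 106 genes from 25.16 to 27.96 cycles, of which 36.8% were higher and 17.9% lower. By unadjusted p under 0.05, 0 were higher and 2 lower (33.3% in either direction, against 58.6% of all genes). TRAF2b, a paralog of the TNF receptor adaptor TRAF2, had relative levels of -9.42, -9.20 and -9.05 in NOD1, against -8.49, -8.30 and -8.58 in control, and fell by 0.77 ± 0.15 (limma adjusted p = 0.00837). TRAF2a, the other paralog, differed by 0.22 ± 0.13 (limma adjusted p = 0.190). The ratio of TRAF2a to TRAF2b was 1.53, 1.37 and 0.98 in NOD1 and 0.33, 0.07 and 0.53 in control, a shift of 0.99 with no overlap (exact permutation p = 0.1). TRAF3, needed for interferon induction by TRIF and MAVS, differed by -0.36 ± 0.14 (limma adjusted p = 0.0783), its groups not overlapping. TRAF6, the ligase downstream of MYD88 and the IRAKs, differed by -0.14 ± 0.15, and the paralogs TRAF4a and TRAF4b by 0.30 ± 0.17 and -0.060 ± 0.12. Of the assays that did not pass, TRAF6 (-0.75), TRAF3 (-0.97), TRAF4b (-0.67) and TRAF2a (-0.39) were called lower with the global mean. TRAF6 (-0.61 and -0.79), TRAF3 (-0.83 and -1.01) and TRAF4b (-0.53 and -0.71) were also called lower with the global median and raw Ct. TRAF3 was called lower with quantile scaling (-0.74), cyclic loess (-0.47) and ACTB alone (-0.54) as well. With 18S rRNA added TRAF4b (0.43), TRAF2a (0.71) and TRAF4a (0.79) were called higher. TRAF4a was also called higher with quantile (0.36) and cyclic loess scaling (0.41).

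Differences on this plate went with the Ct of the assay. The 319 genes were parted into 3 equal groups by mean Ct over the 6 plates, early, middle and late, with the middle group starting at 25.16 and the late group at 27.98 cycles. Of the late genes 61.3% were higher and 4.72% lower, with a median difference of 1.32, of the middle genes 36.8% and 17.9%, with a median of 0.32, and of the early genes 13.1% and 23.4%, with a median of -0.14. Of the 14 late members 8 were higher and 2 lower, of the 19 middle ones 4 and 4, and of the 3 early ones none passed. RIG-I, MAVS, TBK1 and TLR8a were the 4 higher members in the middle group. The late members TLR18 and TLR20a were among the 5 of the 106 late genes that were lower. The part that Ct has in these differences was not tested.

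**Figure D4:**
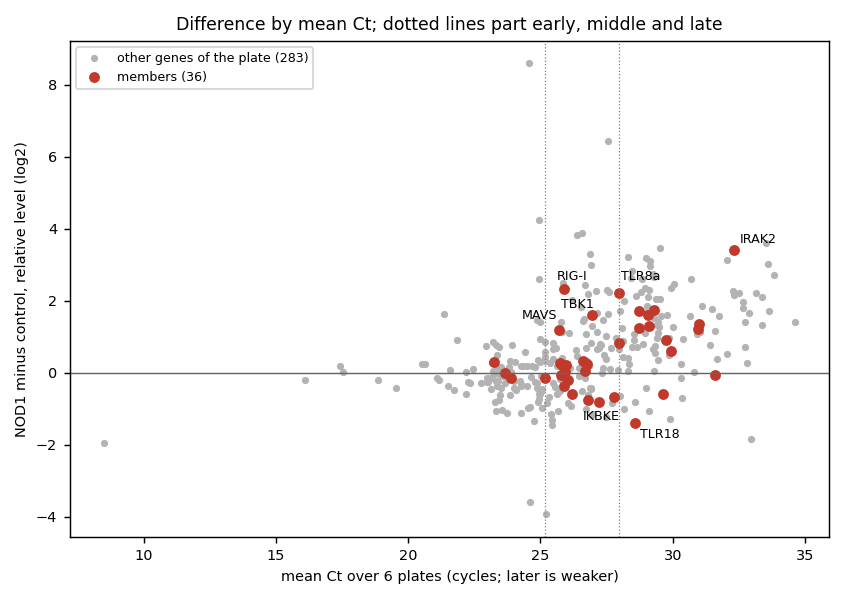
Difference in relative level, NOD1 minus control, on the log2 scale against mean Ct over the 6 plates, for the 36 members (large circles) and the other 283 genes tested (small dots). Most late members lie above 0, with TLR18 below; RIG-I, TBK1 and MAVS stand above 0 among the genes of middle Ct.

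Of the 18 members called, 4 were higher (RIG-I, TBK1, TLR8a and TLR19) and 1 lower (TLR18) under all 10 other scalings of the Ct tried, and 0 of the 18 were called with the opposite sign by any of them. Over these scalings RIG-I ranged from 1.67 to 2.81, TLR8a from 1.29 to 2.71, TLR19 from 0.50 to 2.21, TBK1 from 0.95 to 2.09 and TLR18 from -2.45 to -0.91. Of the other lower members, TRAF2b was lost with 18S rRNA added (-0.28, adjusted p = 0.0920), IKBKE there and with GAPDH alone (-0.33 and -0.61, adjusted p = 0.170 and 0.0915), and TLR5a, TLR20a and SARM1 under both and with B2M added, and TLR20a and SARM1 also with Tuba1 alone. Scaling moved the median difference of all genes from 0.32 to between -0.34 on raw Ct and 0.80 with 18S rRNA added. Relative to the plate median of 0.32, RIG-I was 2.00 higher, TLR8a 1.91, TLR19 1.41, TBK1 1.29 and TLR18 -1.71, while MYD88 was -0.29. In the fits that left out 1 plate, 9 of the 12 higher and 2 of the 6 lower members (TLR18 and TRAF2b) kept their call in all 6. How many of all genes kept a call under every scaling or in every such fit was not counted. These counts therefore do not set the members apart from the rest of the plate.

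**Figure D5:**
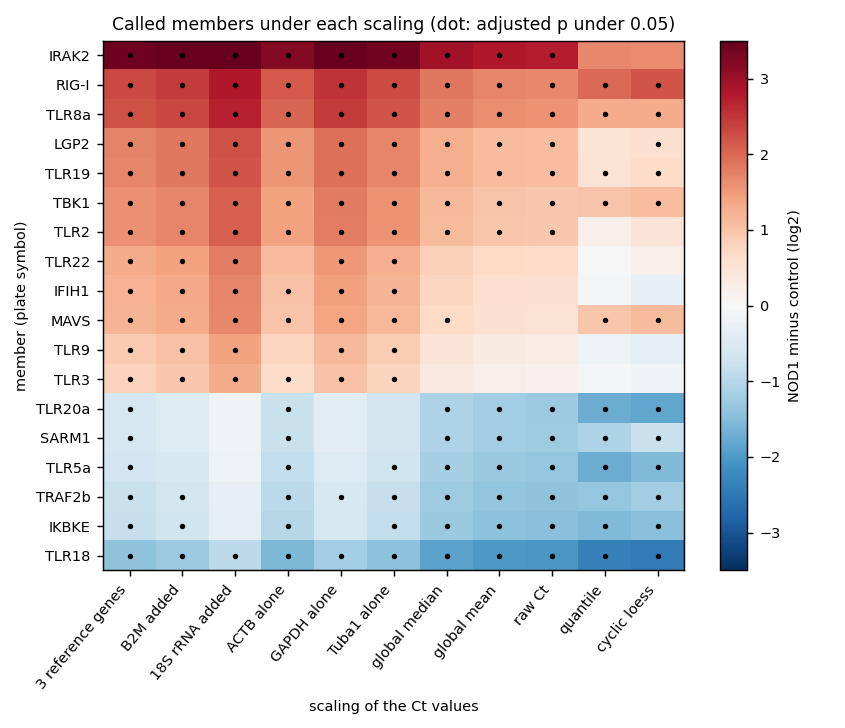
Difference, NOD1 minus control, of the 18 called members (rows) under the 3 reference genes and 10 other scalings (columns), in colour on the log2 scale, with a dot where the adjusted p was under 0.05. RIG-I, TLR8a, TLR19, TBK1 and TLR18 carry a dot in every column, and TLR3, TLR9 and IFIH1 turn below 0 under quantile and cyclic loess scaling.

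Of 36 tested genes that act beside or below these receptors, taken from lists of NF-kB and IKK proteins, the TAK1 complex, interferon regulatory factors, type I interferons, inflammatory cytokines and regulators, 17 were higher (47.2%, against 37% of all genes), 2 were lower (5.56%, against 15.4%), and another 17 stayed short of the threshold. Their median difference was 0.73, against 0.32 over all genes. Among the genes called, the 5 largest rises were those of the type I interferons IFNphi3 (3.46 ± 0.63) and IFNphi4 (2.50 ± 0.33), the lymphocyte and myeloid factor IRF4b (2.59 ± 0.62), and the cytokines tnfa (2.59 ± 0.48) and IL12a (2.30 ± 0.43), with limma adjusted p of 0.00235 to 0.0160. The TNF receptor adaptor TRADD, named here after its values were seen, had a larger difference (3.87 ± 2.32) that did not pass (limma adjusted p = 0.207). TRADD had -6.77, -6.70 and -6.59 in NOD1 and -7.53, -8.02 and -16.13 in control, and without control replicate 3 it was 1.09 higher (adjusted p = 0.0152). IFNphi4 had relative levels of -6.99, -6.28 and -6.77 in NOD1, against -9.61, -8.58 and -9.34 in control. IFNphi3 was 4.10 without control replicate 1 and 2.86 without control replicate 2. IRF4b was 3.20 without control replicate 2 and 1.94 without control replicate 3, and did not pass without NOD1 replicate 1 or 2 (adjusted p = 0.0505 and 0.0515) or with quantile and cyclic loess scaling (1.20 and 1.14). With quantile scaling tnfa was 1.48 (adjusted p = 0.0839). Both lower genes encode proteins that join receptor complexes to NF-kB, the kinase RIPK1 (-0.74 ± 0.13, limma adjusted p = 0.00671) and the IKK subunit IKBKG (-0.42 ± 0.14, adjusted p = 0.0455). IKBKG kept its call in only 1 of the 6 fits without a plate, that without NOD1 replicate 2. It was also lost with 18S rRNA added (0.070), with B2M added (-0.30) and with GAPDH alone (-0.21). RIPK1 was lost with 18S rRNA added (-0.25) and with GAPDH alone (-0.52). Among the interferon regulatory factors 5 of 11 were higher and among the NF-kB and IKK genes 3 of 7, with 1 lower, shares (45.5% and 42.9%) near the 37% of all genes. Of the type I interferons 3 of 4 were higher (75.0%, against 37% of all genes), a share that rests on 4 assays. IFNphi2 and IFNphi3 lay in the late group of mean Ct, of which 61.3% were higher. IFNphi4 lay in the middle group, of which 36.8% were higher, and IFNphi1, also late, did not pass.

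Of 21 blood and immune cell markers listed, 4 were on the plate. The myeloid factor SPI1 was 0.81 ± 0.19 higher (limma adjusted p = 0.0146), with NOD1 plates at -7.47, -6.88 and -6.99 and control plates at -7.80, -7.98 and -7.99; it did not pass without control replicate 3 (adjusted p = 0.0507) or with the global mean (0.20), global median (0.34), quantile (0.62) or raw Ct (0.16). The macrophage receptor CSF1R fell by 1.17 ± 0.16 and the erythroid receptor EPOR fell by 1.01 ± 0.16 (limma adjusted p = 0.00271 and 0.00411), and the leukocyte marker PTPRC differed by -0.011 ± 0.14. SPI1 and CSF1R thus went opposite ways. Which cells these assays read in whole embryos, and the part of cell make-up in the TLR differences, was not tested.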

How the data were processed

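Per the file headers, each plate was read by SYBR Green under a manual threshold, and the deposited Ct values are raw. In the authors' deposited table, per the file headers, each delta Ct is a group mean on a log2-like scale, with a fold (ratio) of NOD1 over control and a p-value. Taking Ct values over 35 or undetermined as 35 and subtracting the mean of ACTB, GAPDH and Tuba1 gave the same delta Ct for 326 of 326 genes, to within 1e-06 cycles, and this scale was used here.

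A gene was tested where 1 of the groups had it under 35 cycles on each of its 3 plates (319 of 326 genes). limma 3.58.1 in R 4.3.3 (lmFit, eBayes, two-sided) compared all 6 plates, with Benjamini-Hochberg adjustment over the 319 genes and a threshold of 0.05. The script was tested on simulated data with independent noise. Those data held no run effect and no shift of the reference genes, so the test does not bear on either. Between 314 and 321 genes per plate had a Ct under 35. The number of plates limits precision.

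Every member is named, with NOD1, the reference genes and the 5 called genes of the wider lists with the largest difference in each direction (2 were lower), and the listed cell markers on the plate. Members, lists and the 7 pairs were chosen with earlier results of these data known. In RefSeq's GRCz12tu genes, 19 members matched by accession, 10 by symbol and 4 by synonym, and 3 (TLR7, IRAK2 and LGP2) did not match. The numbers do not pair the plates: the deviations of same-numbered plates correlated at 0.113, 0.0315 and -0.0218. Alternatives covered scaling, ceiling, filter, spread, the replicate block, single plates, the deposited p-values and, added after seeing the data, run day as a random block.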

Additional observations from a re-analysis of the deposited data

How the results depend on the processing

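Against 12 higher and 6 lower members, there were 7 and 18 when scaled to the global mean, 8 and 13 to the global median, 6 and 9 after quantile scaling, 7 and 8 after cyclic loess, 7 and 15 on raw Ct, 13 and 3 with B2M as a further reference, 24 and 1 with 18S rRNA as one, 16 and 2 with GAPDH alone, and 13 and 3 by the authors' deposited p-values, adjusted over the plate. By the deposited p-values TICAM1, IRAK1 and TLR7 were called higher (adjusted p = 0.0382, 0.0295 and 0.0376). TLR9, TLR22, SARM1, TLR20a and IKBKE lost their calls there. TICAM1, IRAK1 and TLR7 were also called higher with GAPDH alone and with 18S rRNA added. Leaving out 1 plate gave 9 to 13 higher and 3 to 5 lower members. Against 118 higher and 49 lower genes in all, these settings gave 76 and 140 (global mean), 81 and 113 (global median), 59 and 78 (quantile), 66 and 72 (cyclic loess), 71 and 134 (raw Ct), 195 and 18 (18S rRNA added) and 127 and 25 (GAPDH alone), and fits without 1 plate gave 96 to 113 and 31 to 45. With B2M added there were 124 and 37, and by the deposited p-values, adjusted over 326 genes, 104 and 43. The later reference genes in NOD1 differed by 0.588 to 0.724 cycles without 1 plate. With the replicate block, whose numbers do not pair the plates, 12 members were higher and 4 lower (111 and 40 genes in all), TLR5a and SARM1 being lost. Run day as a random block gave 17 and 7 members (141 and 71 genes in all). Its correlation was estimated at -0.335, from the control plates of 2 days and the NOD1 plates of 1 day, so this block cannot part run from group. Signs turned for called members with quantile scaling (TLR3 -0.057, TLR9 -0.19, TLR22 -0.024, IFIH1 -0.043) and cyclic loess (TLR3 -0.11, TLR9 -0.33, IFIH1 -0.30). Members that did not pass with the reference genes were called in the other direction with the global mean (MYD88 -0.59, TRIF -0.57, IRAK1 -0.33, IRAK4 -0.37, TLR7 -0.39, TRAF2a -0.39), the global median (MYD88 -0.45), raw Ct (MYD88 -0.63, TRIF -0.61, TLR7 -0.43), quantile scaling (IRAK4 -0.43) and 18S rRNA added (TIRAP 0.34, TOLLIP 0.47, TRAF4b 0.43). Global mean, global median, raw Ct and other reference genes shift all genes of a plate alike; RIG-I, like every gene, moved by -0.609 with the global mean. For other changes the cause was not tested. Late wells, up to 34.97 cycles for IRAK2, limit precision.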
